A study of Mus musculus with 14 samples.

Results

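Dexamethasone (DEX), a synthetic glucocorticoid (GC), was given to mice whose GC receptor (GR) gene was intact, and the transcripts of the whole colon were measured on Agilent 1-color mouse arrays. All arrays labelled Flox were taken, 3 from mice given DEX (replicates 1, 2, and 4) and 4 from mice given PBS, together 7 of the 14 arrays of the series. The Flox mice carried floxed GR alleles and, unlike the other 7 mice (GR iKO), no Villin-cre transgene, which deletes GR in the intestinal epithelium. All mice were C57BL/6 males on a chow diet that were adrenalectomized (ADX) at 6 to 8 weeks of age and were 8 to 10 weeks old, 2 weeks later, when they were injected. DEX was given at 1 mg/kg and the colon was taken 6 hours later. These ages are those of the labels, and the methods of the study give an older age at ADX. The PBS mice are known as such from the sample titles, since the treatment text of the labels describes only DEX. ADX removes the source of circulating corticosterone, so the PBS arrays show colon without adrenal hormone and the DEX arrays show the same state with GR engaged for a short time.

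GCs cross the cell membrane and bind GR, which leaves a chaperone complex and moves into the nucleus. There it binds DNA as a dimer at GC response elements and raises transcription, or meets other factors such as NF-kB and AP-1 at the genes those factors drive. In the intestine, GCs are known for raising salt and water absorption, for shifting cells from glucose to fat and amino acids as fuel, and for lowering the output of inflammatory mediators. GR is present in epithelial cells, leukocytes, endothelium, and stroma alike, and whole colon holds all of these. A lower value in whole tissue can come from fewer cells of a type or from less RNA per cell, and these cannot be told apart here.

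Values are log2 intensities from the quantile normalized table, so a difference of 1 is a 2-fold change. A probe counted as changed, or called, where limma gave a p under 0.05 after Benjamini-Hochberg adjustment and the change was at least 2-fold, and a gene is represented by its brightest probe. Of 41174 probes, 631 (1.53%) were called, 256 of them higher with DEX (0.622%) and 375 lower (0.911%), and 7797 had an unadjusted p under 0.05. Among the 28434 probes that were well above background on every array of at least 1 of the groups, 205 were called higher (0.721%) and 325 lower (1.14%). Over the 19096 genes on the array, 164 were called higher (0.859%) and 252 lower (1.32%), and the median change of all genes was 0.00. Of these, 140 and 231 passed the background filter, which 15362 genes passed. The counts of each list below are to be read beside the shares of all 19096 genes. The lists and their members were chosen with earlier results of these data known. The counts are therefore a description and do not test whether a list stands out. All DEX arrays lay above all PBS arrays for 2210 genes (11.6%) and below them for 2470 genes (12.9%), so arrays that do not overlap are common at this group size. The count of called probes was 236 without DEX array 1, 377 without DEX array 2, 350 without PBS array 3, 414 without PBS array 4, and 803 without PBS array 1.

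The arrays were alike in quality. Each array had 28284 to 30504 probes well above background, and log2 values correlated with r of 0.9827 to 0.9878 within a group and 0.9764 to 0.9848 between the groups. Each group was hybridized on a slide of its own and scanned on its own, so slide and treatment cannot be told apart. The calls were spread over the array surface. Of the probes past the background filter, 171 of 9654 were called in the upper band of rows, 204 of 9578 in the middle band, and 155 of 9202 in the lower band, and the median change there was 0.00, 0.00, and 0.01. Nr3c1, which encodes GR, was 10.80, 10.91, 10.87, and 10.70 on the PBS arrays and 10.54, 10.53, and 10.75 on the DEX arrays, a difference of −0.21 that was not called (adjusted p = 0.354). The epithelial markers Epcam and Vil1 were at 14.01 or above on all 7 arrays.

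Exocrine pancreas genes were high on 3 of the 7 arrays, although the labels name colon as the tissue. Cpa1, a digestive carboxypeptidase of the pancreas, was 17.45 and 17.38 on DEX arrays 1 and 2 and 16.43 on PBS array 2. It was 9.16 on PBS array 3 and 3.92, 3.26, and 4.55 on PBS arrays 1 and 4 and DEX array 4. The mean of 13 such genes ranged from 6.36 to 14.68 on the PBS arrays and from 7.20 to 16.51 on the DEX arrays, and although their median change was 4.57, 0 of them were called. With this mean as a covariate, 163 probes were called higher and 253 lower, and 18 of 122 called genes, nearly all of them named here, were no longer called. The part of pancreatic tissue in the other results was not tested beyond this fit, and its counts for the gene lists are given below where they differ by over 1.5 times and by at least 2 genes.

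**Figure D1:**
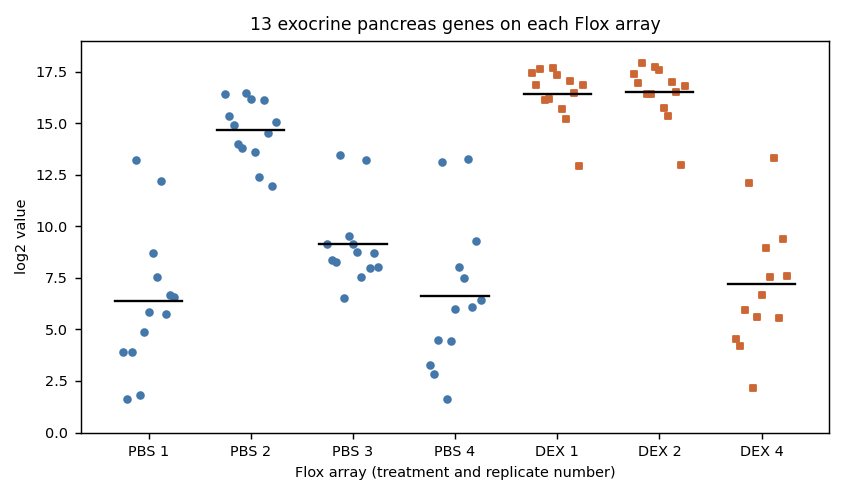
Log2 values (vertical axis) of 13 exocrine pancreas genes, 1 point per gene, on each Flox array, with circles for PBS and squares for DEX and a line at the mean of each array. PBS array 2 and DEX arrays 1 and 2 stand far above the other 4 arrays, so the signal is found in both groups.

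Genes of bile acid uptake, arginine breakdown, and lactose digestion were among the 8 largest rises beside 3 well known GR targets, and 4 of the 8 largest falls were chemokines or interferon-induced genes. Slc10a2, the apical bile acid transporter of the ileum, was 7.28, 4.55, 5.62, and 5.24 on the PBS arrays and 12.06, 10.73, and 11.37 on the DEX arrays, a rise of 5.72 (SE 1.16, limma adjusted p = 0.0234). Its second probe rose by 6.11. The groups lay far apart, but the call was kept in 12 of 22 alternative settings, and it was lost with the pancreas covariate and when any 1 array other than PBS array 1 was left out. Arg2, the mitochondrial arginase, was 5.78, 4.39, 4.50, and 5.48 with PBS and 11.13, 9.95, and 9.98 with DEX, a rise of 5.32 (SE 0.55, adjusted p = 0.00104). All DEX values were above all PBS values by more than 4 log2 units.

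Alkal2, a ligand of the receptor tyrosine kinase ALK, was above background on no PBS array and was 6.08, 5.87, and 5.95 with DEX. Where a gene is that dim in a whole group, its size is given as a bound against the lowest signal that was well above background on those arrays, and for Alkal2 the rise was at least 5.48-fold (adjusted p = 0.00373). Other called genes were detected on only some arrays of the dimmer group, so the size of their change rests in part on values at background. These were Lancl3 (1 of 4 PBS arrays), Pdzd4 (2 of 4), Fst, Lct, and Slc6a19 (3 of 4 each), Nat8f5, Lilrb4a, Xcl1, Hoxd10, and Tgm1 (1 of 3 DEX arrays each), and Cyp2c23, Klrg1, Mmp9, Pdpn, and Plau (2 of 3 each). Lct, the lactase of the small intestine, went from 4.36, 5.98, 3.21, and 4.41 to 8.47, 7.76, and 8.54, a rise of 3.77 (SE 0.52, adjusted p = 0.00423). Lancl3 rose by 3.52 (SE 0.58, adjusted p = 0.00946), although it was well above background on only 1 PBS array. Fkbp5, Pdk4, and Sgk1 completed the 8 largest rises and are described with the GC-induced genes.

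Among the falls, Tex19.1, a germline gene that restrains retrotransposons, was 4.44, 6.16, 5.14, and 7.32 with PBS and well above background on no DEX array, a fall of at least 4.73-fold (limma adjusted p = 0.0118). Prnd, which encodes a relative of the prion protein, likewise fell at least 4.83-fold (adjusted p = 0.0124). Cyp2c23, a cytochrome P450 of the CYP2C family, was 6.94, 6.75, 7.56, and 6.76 with PBS and 3.76, 3.72, and 3.79 with DEX, a change of −3.24 (SE 0.39, adjusted p = 0.00253). Its call was kept in all 22 alternative settings. Nat8f5, of a family of N-acetyltransferases, fell by 2.95 (SE 0.60, adjusted p = 0.0232), but with 1 DEX array above background its change ranged from −3.29 to −0.91 over the alternatives, and the call was lost without DEX array 1, 2, or 4 or PBS array 2. The other 4 large falls, Ccl7, Cxcl10, Ccl2, and Iigp1, belong to the inflammatory genes below.

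**Figure D2:**
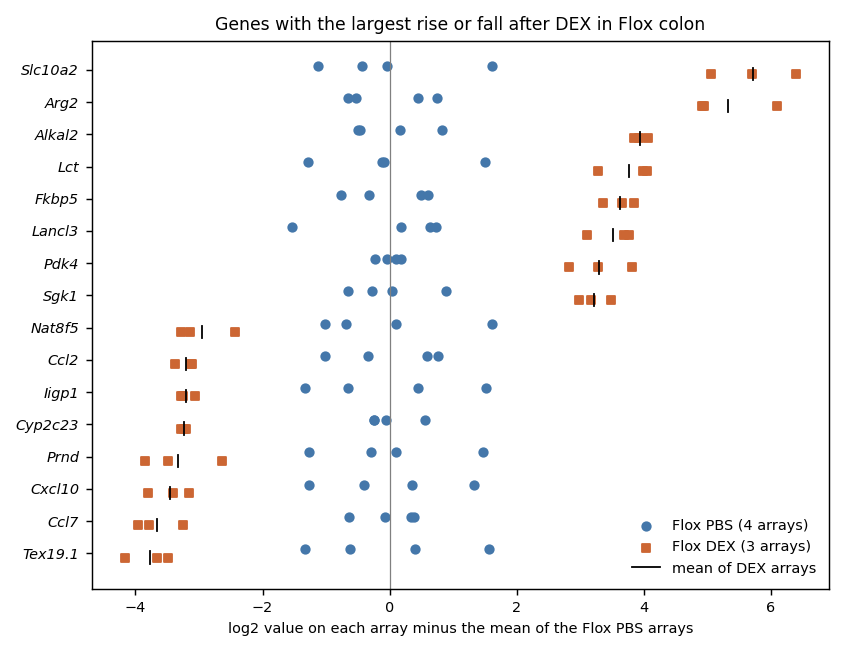
The 16 called genes that moved furthest, 8 up and 8 down, with the log2 value of each array minus the mean of the Flox PBS arrays on the horizontal axis. Circles are the 4 PBS arrays, squares the 3 DEX arrays, and lines the DEX mean. For each of the 16 genes the circles and squares do not overlap, and the circles are most widely spread for Tex19.1, Iigp1, Nat8f5, and Slc10a2.

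GC-induced genes rose as a group. Of 35 genes known to respond to GCs in many tissues, all past the background filter, 11 were called higher and 0 lower, against 0.859% and 1.32% of all genes, and the median change was 0.54 against 0.00. The list mean was 10.01 to 10.30 on the PBS arrays and 11.02 to 11.28 on the DEX arrays. Fkbp5, a co-chaperone that lowers the affinity of GR for its hormone, was 8.88, 7.94, 7.51, and 8.76 with PBS and 12.12, 11.93, and 11.64 with DEX, a rise of 3.63 (SE 0.33, adjusted p = 0.000645). Its 2 other probes rose by 3.10 and 3.26.

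Sgk1, a kinase that keeps sodium channels at the cell surface, was 13.10, 11.56, 11.92, and 12.25 with PBS and 15.69, 15.19, and 15.37 with DEX. It rose by 3.21 (SE 0.31, adjusted p = 0.000914), and all DEX arrays were above all PBS arrays. Of 27018 RefSeq genes, only 3 (0.0111%) held the full GC response element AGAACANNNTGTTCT in the 250 bases before a transcription start on either strand, and Sgk1, at 1 of its 6 RefSeq starts, was 1 of them. Below are 100 bases from 250 bases before that start onward (GRCm38.p6, chr10:21993640-21993739, plus strand), shown because the element lies 189 to 175 bases before the start. The element is in capitals.
Sgk1: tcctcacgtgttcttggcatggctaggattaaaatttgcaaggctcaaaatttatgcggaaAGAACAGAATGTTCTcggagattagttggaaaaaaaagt
No other GC-induced gene of the 32 with a RefSeq promoter held the full element in that window. The shorter AGAACA was found at least once, on either strand, in 5 of the 32 (15.6%) and in 18.2% of all genes.

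Tsc22d3, which encodes the GC-induced leucine zipper, was 11.10, 11.07, 10.62, and 11.06 with PBS and 13.08, 12.85, and 12.65 with DEX, a rise of 1.89 (SE 0.17, limma adjusted p = 0.000633). The metallothionein Mt2, which binds zinc, rose by 2.48 (SE 0.26, adjusted p = 0.00104) from 13.05 to 14.08 on the PBS arrays to 15.95 to 16.20 on the DEX arrays. Mt1, chosen after its values were seen, rose by 1.64 (adjusted p = 0.00261). Fam107a, an actin-binding protein induced by stress, rose by 2.42 (adjusted p = 0.00358), and Sesn1, a sestrin that restrains growth signaling, rose by 1.56 (adjusted p = 0.000923). Fam43a, also chosen after its values were seen, was 7.85 to 8.04 with PBS and 9.78 to 10.20 with DEX, and its rise of 2.08 was called in all 22 alternative settings. Not every known target passed the test. Per1, a clock gene under direct GR control, was higher on all DEX arrays (9.78 to 10.47 with PBS, 10.81 to 11.07 with DEX), but its difference of 0.81 was under 2-fold and missed the threshold (adjusted p = 0.0653). Nfkbia, which encodes an inhibitor of NF-kB, and Cdkn1a, a cell cycle inhibitor, differed by 0.17 and 0.16 and overlapped between the groups.

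Several genes of fuel choice rose. Of 34 genes of fuel selection and gluconeogenesis, 30 past the filter, 5 were called higher and 1 lower (all genes: 0.859% and 1.32%). The median was 0.04. Without DEX array 1 or PBS array 3, 3 were called higher. Of the genes below, Pdk4, Angptl4, and Klf15 are also in the GC-induced list and were counted there. Pdk4, which blocks entry of pyruvate into the citric acid cycle, was 7.28, 7.19, 6.87, and 7.05 with PBS and 10.90, 9.91, and 10.37 with DEX, a rise of 3.30 (SE 0.34, adjusted p = 0.000924) that was called in all 22 settings. Its relative Pdk1 differed by −0.32 and was not called. Angptl4, an inhibitor of lipoprotein lipase, rose by 2.58 (SE 0.51, adjusted p = 0.0218), with PBS arrays from 8.29 to 10.14 and DEX arrays from 10.93 to 12.42. Its call was lost with the pancreas covariate and without DEX array 1, DEX array 4, or PBS array 3. Klf15, a transcription factor of fasting metabolism, rose by 1.85 (adjusted p = 0.00232), although another probe of it changed by 0.44, and G6pc, the last enzyme of glucose release, rose by 1.19 from low values (4.56 to 5.03 with PBS, 5.88 to 6.10 with DEX). Plin2, which coats lipid droplets, was 14.16 to 14.68 with PBS and 13.07 to 13.58 with DEX, and its fall of 1.09 (adjusted p = 0.0405) was lost when any 1 array was left out.

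The called genes of amino acid metabolism were all higher. Of 40 genes on the array, 38 past the filter, 7 were called higher and 0 lower (all genes: 0.859% and 1.32%). The median was 0.14. The count of calls was 4 without DEX array 2 and 5 without DEX array 1, PBS array 2, or PBS array 3. Beside Arg2, the glycine enzymes Gldc and Gnmt rose. Gldc, of the glycine cleavage system, was 4.36, 4.75, 4.71, and 3.95 with PBS and 6.77, 6.91, and 6.45 with DEX, a rise of 2.26 (SE 0.27, adjusted p = 0.00232). Gnmt, which methylates glycine, was 6.75 to 7.24 with PBS and 9.24, 9.34, and 7.85 with DEX, a rise of 1.88 (adjusted p = 0.0173), so DEX array 4 was the lowest of the DEX arrays. Prodh, which starts proline breakdown, rose by 1.34 (SE 0.15, adjusted p = 0.00214), and the aminoacylase Acy1, chosen after its values were seen, rose by 1.06. Of the transporters, Slc6a6, which carries taurine, rose by 1.11 (SE 0.08, adjusted p = 0.000311) and was called in all 22 settings, whereas Slc6a19, the neutral amino acid transporter of the small intestine, rose by 1.57 and was kept in 11. Arg1, the cytosolic arginase, and Ass1, which makes argininosuccinate, overlapped between the groups (differences of −0.28 and −0.12).

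Steroid and salt handling genes of the colonic epithelium changed in both directions. Of 26 genes for GR, steroid metabolism, and chaperones, 25 past the filter, 2 were called higher and 1 lower (all genes: 0.859% and 1.32%). The median was 0.02. Hsd11b2, which inactivates corticosterone and so protects the mineralocorticoid receptor, was 10.15, 9.43, 9.73, and 10.02 with PBS and 11.54, 11.49, and 11.04 with DEX, a rise of 1.52 (SE 0.25, adjusted p = 0.00991). The call was lost without DEX array 1. Cyp3a13, a cytochrome P450 that acts on steroids and drugs, rose by 1.78 from 11.99 to 13.16 to values of 14.33 to 14.50 (adjusted p = 0.00842). Hsd17b2, which oxidizes estradiol and testosterone, fell by 1.26 (SE 0.16, adjusted p = 0.00309). Hsd11b1, which acts in the opposite direction to Hsd11b2, and Nr3c2, the mineralocorticoid receptor, differed by 0.14 and −0.30 and were not called.

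Of 38 genes of ion and water transport, all past the filter, 4 were called higher and 1 lower (all genes: 0.859% and 1.32%). The median was 0.11. Scnn1b, the beta subunit of the epithelial sodium channel, was 6.03, 5.25, 5.31, and 6.29 with PBS and 7.59, 7.87, and 7.87 with DEX, a rise of 2.06 (SE 0.33, limma adjusted p = 0.00805). The gamma subunit Scnn1g overlapped between the groups (3.83 to 6.32 and 5.47 to 8.07), and the alpha subunit Scnn1a was lower on all DEX arrays by 0.66 without a call. Slc9a3, the apical sodium-proton exchanger, rose by 1.70 (SE 0.24, adjusted p = 0.00466), and both of its probes gave that value. Car14, a membrane-bound carbonic anhydrase, was 7.41, 6.28, 6.97, and 6.56 with PBS and 8.92, 9.35, and 9.41 with DEX, a rise of 2.42 (adjusted p = 0.00133). Slc5a8, the sodium-coupled transporter of butyrate, went the other way. It was 13.83, 14.02, 14.08, and 13.83 with PBS and 11.65, 11.85, and 12.18 with DEX, a change of −2.05 (SE 0.27, adjusted p = 0.00358) that was called in all 21 settings in which its probe was fitted. The water channel Aqp1, which marks vessels as well as epithelium, rose by 1.00 and was kept in 8 of 21 settings, and Aqp8 of colonocytes was lower on all DEX arrays by 0.92, under 2-fold (adjusted p = 0.0412).

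Among 34 genes of the small intestine and bile acid handling, 28 past the filter, 4 were called higher and 1 lower (all genes: 0.859% and 1.32%). The median was 0.22. The 4 higher genes were Slc10a2, Lct, Cyp27a1, and Slc10a6. Cyp27a1, the sterol 27-hydroxylase, was 7.54, 6.72, 7.69, and 7.48 with PBS and 8.79, 8.97, and 8.83 with DEX, a rise of 1.51 (SE 0.20, adjusted p = 0.00402). Slc10a6, a transporter of sulfated steroids, rose by 1.58 (adjusted p = 0.0246) and was kept in 12 of 21 settings. Fabp6, the ileal bile acid binding protein, was well above background on no DEX array and fell at least 1.99-fold. It was dim with PBS too (4.25 to 4.94), and its call was lost with 75th percentile scaling, normexp correction, or a floor on dim values and without DEX array 1 or PBS array 3. Of these 34 genes, 2 were called higher when any 1 of DEX arrays 1, 2, and 4 and PBS arrays 2 and 3 was left out. Sterol and fatty acid synthesis was lower in most members without calls. Of 29 genes, all past the filter, 26 had a negative change and the median was −0.37, yet 0 were called lower and 2 were called higher (all genes: 1.32% and 0.859%). The 2 were Npc1 (1.16, adjusted p = 0.000923), which exports cholesterol from lysosomes, and Vldlr (1.19, adjusted p = 0.00398), a lipoprotein receptor. Srebf1, a regulator of lipid synthesis, and Fasn, the fatty acid synthase, differed by −0.48 and −0.54.

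**Figure D3:**
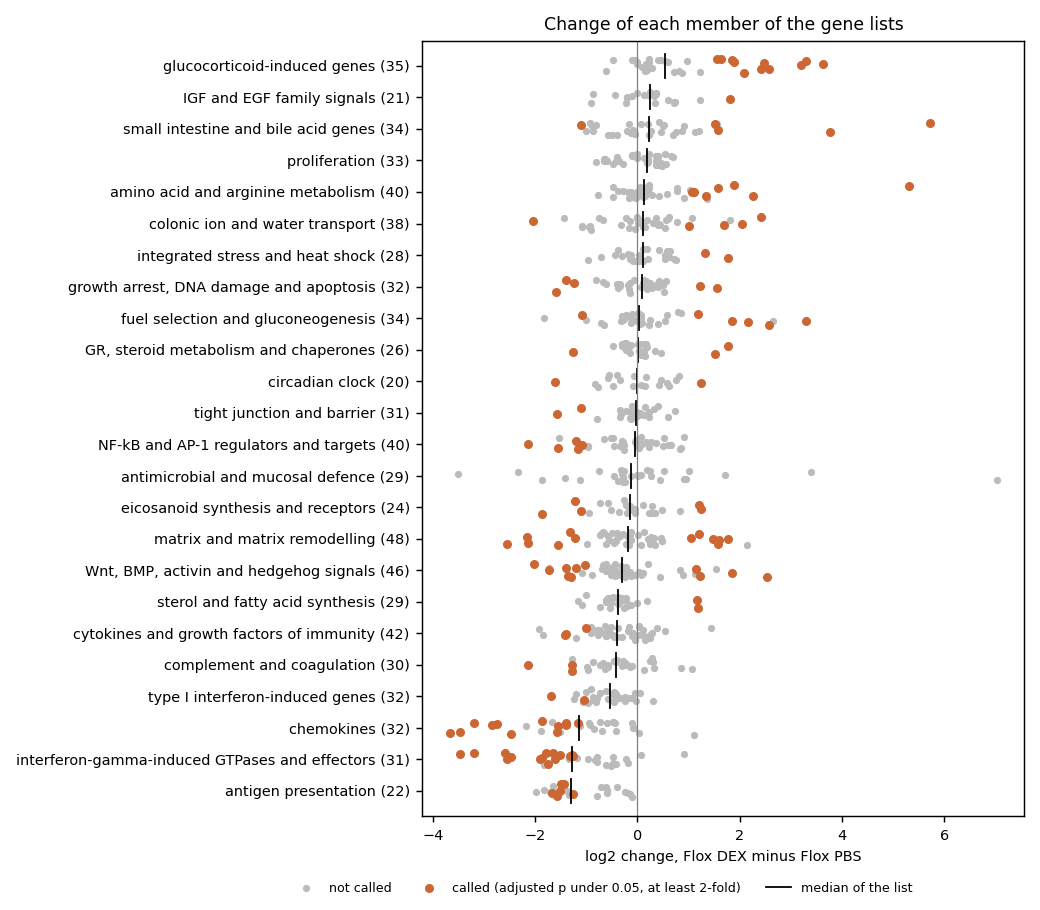
Log2 change of every member on the array of each of 24 gene lists (horizontal axis, DEX minus PBS), sorted by the list median, which is drawn as a line, with the number of members in brackets. Colored points were called and gray points were not. GC-induced genes had the highest median (0.54), and antigen presentation (−1.30), interferon-gamma-induced genes (−1.28), and chemokines (−1.14) had the lowest.

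Chemokines fell. Of 32 on the array, 25 past the filter, 12 were called lower and 0 higher (all genes: 1.32% and 0.859%). The median was −1.14. On all DEX arrays, 22 of the 32 were below all PBS arrays (12.9% of all genes were), and 1 was above. The list mean was 7.55 to 8.13 with PBS and 6.59 to 6.68 with DEX. The count of calls was 8 without DEX array 1 and between 9 and 14 without any other array. Ccl2, Ccl7, and Ccl12 draw CCR2-bearing monocytes. Ccl2 was 7.31, 9.08, 8.91, and 7.98 with PBS and 4.95, 5.22, and 5.20 with DEX, a change of −3.20 (SE 0.38, adjusted p = 0.00232). Ccl7 was 7.61, 8.60, 8.63, and 8.19 with PBS and 4.59 ± 0.37 (SD, n = 3) with DEX, a change of −3.67 (SE 0.32, adjusted p = 0.000633), and its second probe gave −3.24. Ccl12 fell by 2.84 (SE 0.42, adjusted p = 0.0057). For all 3 genes the lowest PBS array was PBS array 1, and it was still above every DEX array.

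Cxcl9 and Cxcl10 draw CXCR3-bearing T and NK cells and are induced by interferon-gamma. Cxcl10 was 6.95, 8.58, 9.55, and 7.82 with PBS and 4.81, 5.06, and 4.42 with DEX, a change of −3.46 (SE 0.57, adjusted p = 0.00946). Cxcl9 changed by −2.47 (SE 0.57, adjusted p = 0.0376), from 5.91 to 8.80 with PBS to 4.62 to 5.74 with DEX. Its call was kept in 11 of 21 settings and was lost in a fit of only the 7 Flox arrays. Xcl1, a chemokine of NK and T cells that attracts dendritic cells, was well above background on all 4 PBS arrays (mean 5.68 ± 0.50, SD, n = 4) and on 1 DEX array, and fell by 2.74 (adjusted p = 0.0121).

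Interferon-gamma-induced GTPases and effectors fell with them, and Cxcl9 and Cxcl10 were counted in both lists. Of 31 on the array, 30 past the filter, 15 were called lower and 0 higher, the median was −1.28, and 22 lay below all PBS arrays, against 1.32% of all genes called lower and 12.9% below all PBS arrays. The count of calls ranged from 6 without DEX array 1 to 18 without PBS array 1, and was 7 without PBS array 3, 8 without DEX array 4, 9 without DEX array 2 or PBS array 4, and 13 without PBS array 2. Iigp1, an immunity-related GTPase that attacks the vacuoles of intracellular parasites, was 9.94, 12.79, 11.72, and 10.62 with PBS and 7.98, 8.21, and 8.01 with DEX, a change of −3.20 (SE 0.51, adjusted p = 0.00798). The guanylate-binding protein Gbp2 was 10.81, 11.81, 11.76, and 11.25 with PBS and 9.10, 9.89, and 9.52 with DEX, a change of −1.91 (SE 0.24, adjusted p = 0.00276). Gbp4 fell by 2.56 (SE 0.31, adjusted p = 0.00261). For all 3 genes PBS array 1 was the lowest and PBS array 2 the highest of the PBS arrays, and the list mean ran from 9.45 to 10.66 there against 8.60 to 9.05 on the DEX arrays.

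The GTPases Igtp and Tgtp1 fell by 1.79 (adjusted p = 0.0245) and 2.59 (adjusted p = 0.0173), again with PBS array 1 lowest and PBS array 2 highest. Igtp was 11.04, 13.10, 12.40, and 11.96 with PBS and 10.09, 10.71, and 10.19 with DEX. Another probe of Tgtp1 changed by 0.27, and Tgtp1 has a near-identical copy, Tgtp2, so its value is uncertain. Irgm2, Gbp3, and Gbp7 were chosen after their values were seen and fell by 1.28, 1.31, and 1.66 (adjusted p = 0.0284, 0.00946, and 0.00287). In a fit of only the 7 Flox arrays, Iigp1, Igtp, Tgtp1, Irgm2, and Gbp3 were not called, whereas Gbp2, Gbp4, and Gbp7 were.

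The promoters of these genes were searched, as a description, for an interferon-stimulated response element (GAAANNGAAA) and a gamma-activated site (TTCNNNGAA) on both strands in the 250 bases before the start. The response element was in 10 of 21 genes of the list with a RefSeq promoter (47.6%), in 7 of the 11 of them that were called (63.6%), and in 3.46% of all RefSeq genes. The gamma-activated site was in 8 of 21 (38.1%) and in 8.13% of all. Of the 181 genes called lower with a promoter, 20 (11%) held the response element, and of the 128 called higher, 4 (3.12%) did. The sequences below are the last 100 bases before the start of 6 of the GTPase genes (GRCm38.p6), shown for how the elements lie, with every match to either element in capitals. Gbp2 held only the response element, and Gbp3 held 2 overlapping copies of it, without a gamma-activated site in this stretch. The positions are chr11:58199456-58199555 (plus strand) for Igtp, chr11:58214877-58214976 (plus) for Irgm2, chr11:48992247-48992346 (minus) for Tgtp1, and chr3:142620563-142620662, chr3:142559944-142560043, and chr3:142530236-142530335 (plus) for Gbp2, Gbp3, and Gbp7. In Gbp2, Gbp3, and Gbp7 the response element matches on the other strand, so the capitals show its reverse complement.
Igtp: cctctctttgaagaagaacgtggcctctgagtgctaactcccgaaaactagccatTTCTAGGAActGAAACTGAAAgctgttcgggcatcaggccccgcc
Irgm2: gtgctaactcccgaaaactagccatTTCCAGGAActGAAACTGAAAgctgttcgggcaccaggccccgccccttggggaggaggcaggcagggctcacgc
Tgtp1: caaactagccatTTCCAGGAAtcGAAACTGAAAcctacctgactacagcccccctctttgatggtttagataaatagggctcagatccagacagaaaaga
Gbp2: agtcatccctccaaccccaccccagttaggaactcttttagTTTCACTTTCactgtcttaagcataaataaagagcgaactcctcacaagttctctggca
Gbp3: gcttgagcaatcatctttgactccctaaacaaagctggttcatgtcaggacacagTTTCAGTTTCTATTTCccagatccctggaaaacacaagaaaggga
Gbp7: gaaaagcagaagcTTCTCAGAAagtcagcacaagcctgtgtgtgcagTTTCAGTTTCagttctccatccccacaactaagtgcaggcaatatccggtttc
In Igtp, Irgm2, and Tgtp1 the gamma-activated site ends 2 bases before the response element, and the flanks of Igtp and Irgm2 are near-identical. This gap was found in 5 of 27018 RefSeq genes (0.0185%), which were these 3, Tgtp2, the near-identical copy of Tgtp1, and Gm12185. Since the gap was chosen from these promoters, the share is a description only, and the 5 are not shown to be independent cases. Cxcl10 held the response element 213 to 204 bases before its start and a kappaB site (GGGANTTNCC), 1 form of the motif of NF-kB, 103 to 94 bases before it. Other forms of that motif were not searched and are not marked. The kappaB site in the searched form was in 1.13% of all RefSeq genes and in 3 of the 24 chemokines with a promoter (12.5%). The 130 bases of Cxcl10 below (chr5:92348980-92349109, minus strand) end 91 bases before the start, with both sites in capitals.
Cxcl10: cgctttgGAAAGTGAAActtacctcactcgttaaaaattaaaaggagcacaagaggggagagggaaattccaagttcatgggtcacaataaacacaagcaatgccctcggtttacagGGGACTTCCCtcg

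Antigen presentation genes had the lowest list median, −1.30, and all 22 on the array (20 past the filter) had a negative change. Of these, 6 were called lower and 0 higher, and 15 lay below all PBS arrays, against 1.32% and 12.9% of all genes. Cd74, the invariant chain of MHC class II, was 12.32, 14.03, 13.29, and 13.11 with PBS and 11.62, 12.01, and 11.23 with DEX, a change of −1.57 (SE 0.38, adjusted p = 0.0463). H2-Ab1, the class II beta chain, changed by −1.49 (adjusted p = 0.0372), with 2 other probes at −1.82 and −1.62. H2-DMb1, which loads peptides on class II, changed by −1.67 (adjusted p = 0.0238), and the peptide transporter Tap1 and the immunoproteasome subunit Psmb9 by −1.52 and −1.27. Tap1 and Psmb9 are also in the interferon-gamma list and were counted there. Ciita, the master regulator of class II and chosen after its values were seen, was 7.27 to 8.73 with PBS and 5.54 to 6.64 with DEX, a difference of −1.83 just short of the threshold (adjusted p = 0.051). The calls rested on few arrays, and none of the 6 was called in a fit of only the 7 Flox arrays. The count was 0 when any 1 of DEX arrays 1 and 4 and PBS arrays 3 and 4 was left out, 1 without DEX array 2, 2 without PBS array 2, and 9 without PBS array 1.

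Type I interferon-induced genes showed the same sign with fewer calls. Of 32, all past the filter, 30 had a negative change, the median was −0.53, and 2 were called lower (all genes: 1.32%). They were Zbp1 (−1.69, adjusted p = 0.0111), a sensor of Z-form nucleic acid, and Sp100 (−1.05, adjusted p = 0.00767), a nuclear body protein. Ifit1, an inhibitor of viral translation, differed by −1.06 with overlapping arrays, and DEX array 2 was its highest DEX array. The 2 calls became 0 without DEX array 1, 3 without DEX array 2, 1 without PBS array 2, 5 without PBS array 1, and 5 with the pancreas covariate.

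Fewer of the other inflammatory genes were called. Of 42 cytokines and immune growth factors, 30 past the filter, 3 were called lower and 0 higher (all genes: 1.32% and 0.859%). The median was −0.41, and 5 were called lower without PBS array 1. Csf1, the growth factor of macrophages, was 8.32, 9.19, 9.33, and 8.86 with PBS and 7.37, 7.44, and 7.70 with DEX, a change of −1.42 (SE 0.22, adjusted p = 0.00791). Tnfsf10, which encodes the death ligand TRAIL, fell by 1.40 (adjusted p = 0.00313), and Tnfsf13b, the B cell survival factor BAFF, by 1.01 (adjusted p = 0.00836). Il1b was 5.65, 6.51, 7.01, and 5.72 with PBS and 3.68, 5.22, and 3.99 with DEX, groups that did not overlap, but the difference of −1.93 was not called (adjusted p = 0.058). Tnf differed by −1.19 (adjusted p = 0.135), and Il6 was well above background on no array.

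Of 40 regulators and targets of NF-kB and AP-1, 37 past the filter, 5 were called lower and 0 higher (all genes: 1.32% and 0.859%). The median was −0.04. Among the 5 were the protease Plau (−2.14, adjusted p = 0.0166), the gelatinase Mmp9 (−1.55, adjusted p = 0.0163), Tnfaip2 (−1.17, adjusted p = 0.0147), and the adhesion molecule Icam1 (−1.08, adjusted p = 0.0474), whose call was kept in only 7 of 22 settings. The count was 1 without DEX array 1, 2 without DEX array 2, 3 without PBS array 3, and 3 with the pancreas covariate. Plau and Mmp9 are also in the matrix list, and Plau in the complement list. Among 24 genes of eicosanoid synthesis and reception, 23 past the filter, 2 were called higher and 3 lower (all genes: 0.859% and 1.32%). Hpgd, which inactivates prostaglandins, was 13.24, 12.64, 12.99, and 12.87 with PBS and 14.17, 14.09, and 14.29 with DEX, a rise of 1.25 (SE 0.19, adjusted p = 0.00612), and the constitutive cyclooxygenase Ptgs1 rose by 1.20 (adjusted p = 0.00879). Ptges, which makes prostaglandin E2, fell by 1.22 (adjusted p = 0.02), the thromboxane synthase Tbxas1 by 1.10 (adjusted p = 0.0123), and the lipoxygenase Alox12 by 1.86 (adjusted p = 0.000311). Only 1 was called lower without DEX array 1. The inducible cyclooxygenase Ptgs2 was higher on all DEX arrays (4.84 to 5.52 and 5.57 to 6.54) without a call. Of 30 complement and coagulation genes, 28 past the filter, 3 were called lower (all genes: 1.32%), among them thrombomodulin (Thbd, −1.28, adjusted p = 0.00791). Proz, the vitamin K-dependent protein Z, was well above background on no DEX array and fell at least 1.71-fold. The 3 calls became 1 without DEX array 1 or PBS array 3 and 5 without PBS array 1.

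Markers of mononuclear phagocytes were lower after DEX. Of 27 macrophage and monocyte genes, all past the filter, 10 were called lower and 0 higher, the median was −0.91, and 18 lay below all PBS arrays, against 1.32% of all genes called lower and 12.9% below all PBS arrays. The list mean was 8.33 to 9.21 with PBS and 7.77 to 8.06 with DEX. Aif1, a calcium-binding protein of macrophages, was 10.43, 11.12, 11.18, and 10.82 with PBS and 9.16, 9.33, and 9.12 with DEX, a change of −1.69 (SE 0.20, adjusted p = 0.00236). Its second probe gave −1.79. The scavenger receptor Msr1 fell by 1.75 (SE 0.24, adjusted p = 0.00423), the high-affinity IgG receptor Fcgr1 by 1.84 (adjusted p = 0.0102), and the inhibitory receptor Lilrb4a by 1.99 (adjusted p = 0.012), the last with 1 DEX array above background and a change of −2.23 to −0.44 over the alternatives. The chemokine receptors of this lineage were lower too. Cx3cr1 was 6.46, 7.14, 7.55, and 6.97 with PBS and 5.49, 5.31, and 5.37 with DEX, a change of −1.64 (adjusted p = 0.0115). Ccr2, the receptor of Ccl2, changed by −1.59 (adjusted p = 0.0246). The lineage markers Csf1r and Adgre1 differed by −1.06 each and lay below all PBS arrays, but were not called (adjusted p = 0.081 and 0.0813), and Cd68 overlapped between the groups. The 10 calls became 4 without DEX array 1, 6 without DEX array 4 or PBS array 3, and 15 without PBS array 1.

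Other leukocyte markers gave few calls, and many of them were dim. Of 12 dendritic cell markers, 9 past the filter, 3 were called lower (all genes: 1.32%). Among them were Itgax (−1.39, adjusted p = 0.00936), which encodes CD11c, and Batf3 (−1.18, adjusted p = 0.0155), a factor of cross-presenting dendritic cells. By comparison, Flt3 and Zbtb46 differed by −0.24 and −0.06. Without DEX array 1 the count was 1. Of 17 NK and innate lymphoid markers, 10 past the filter, 2 were called lower (all genes: 1.32%), Xcl1 and Klrg1 (−1.66, adjusted p = 0.0248). Neither was called without DEX array 1 or 2, and 3 genes were called without PBS array 1. The NK receptor Ncr1 was well above background on no DEX array and Eomes, a factor of NK cells, on no array. Of the 17 markers, 8 lay below all PBS arrays and 1 above (all genes: 12.9% and 11.6%). T cell (19), B cell (13), and neutrophil (10) markers had medians of −0.58, −0.92, and −0.58 with 0 calls, and of these 13, 11, and 4 passed the filter. Below all PBS arrays lay 7, 8, and 2 of them (12.9% of all genes did), and above lay 1, 0, and 0. All 13 B cell markers had a negative change, and their median was close to that of the macrophage list. The subunits of the T cell receptor complex did not move together, with Cd3d and Cd3g lower by 0.96 and 0.97 and Cd3e higher by 0.85, all with groups that did not overlap. The B cell marker Ms4a1 was 6.43, 7.48, 5.31, and 7.85 with PBS and 4.12, 5.20, and 3.23 with DEX, a difference of −2.59 that was not called (adjusted p = 0.357). Of 8 plasma cell markers, 1 was called lower (all genes: 1.32%), Irf4 (−1.83, adjusted p = 0.0213), and all 8 had a negative change. The count was 0 with the pancreas covariate or without any 1 array other than PBS array 1, without which it was 2. Eosinophil and mast cell lists had 0 calls and medians of −0.05 and −0.23.

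**Figure D4:**
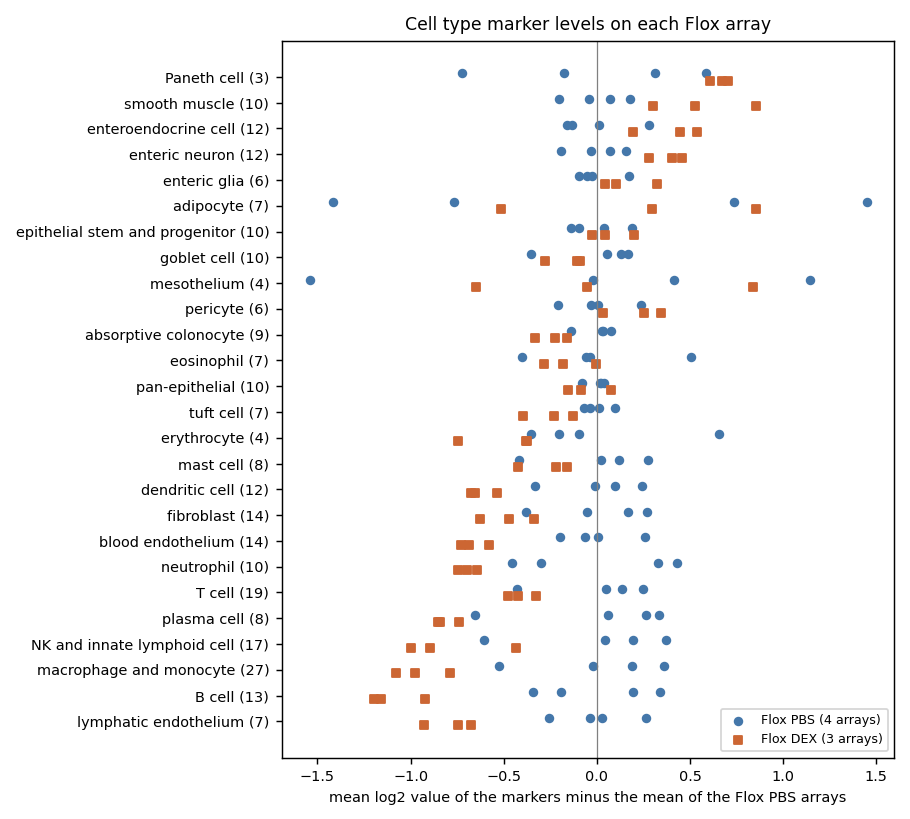
Mean log2 value of the markers of each cell type on each Flox array minus the mean of the PBS arrays (horizontal axis), with the number of markers in brackets, circles for the 4 PBS arrays and squares for the 3 DEX arrays, sorted by the median change of the list. After DEX, lymphatic and blood endothelium, B cell, plasma cell, macrophage and monocyte, dendritic cell, and neutrophil markers lie below all PBS arrays. Smooth muscle and enteric neuron markers lie above them, while pan-epithelial, goblet, and stem cell lists overlap between the groups. Absorptive colonocyte, tuft cell, and erythrocyte lists lie slightly below all PBS arrays and the Paneth cell list slightly above.

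Vessel markers were lower as well. Of 14 blood endothelial genes, all past the filter, 4 were called lower and 0 higher, with a median of −0.57 and 9 below all PBS arrays, against 1.32% of all genes called lower and 12.9% below all PBS arrays. Kdr, the main VEGF receptor, was 8.95, 9.31, 8.91, and 8.94 with PBS and 8.13, 7.92, and 7.94 with DEX, a change of −1.03 (SE 0.16, adjusted p = 0.00779). Esm1, a proteoglycan of tip cells, fell by 1.69 (adjusted p = 0.00951), and Icam2 by 1.13 (adjusted p = 0.0111). Aplnr, the apelin receptor, fell by 1.33 (adjusted p = 0.0186), although another probe of it changed by −0.14. Pecam1 was lower on all DEX arrays by 0.59 (adjusted p = 0.00805), under 2-fold, and Cdh5, the adhesion protein of endothelial junctions, overlapped between the groups (−0.18). The count of 4 became 1 without DEX array 1. Of 7 lymphatic endothelial genes, all past the filter, 3 were called lower. Ccl21a, which guides CCR7-bearing cells into lymphatics and has near-identical copies, was 12.25, 11.88, 12.43, and 11.99 with PBS and 10.86, 10.91, and 9.95 with DEX, a change of −1.56 (SE 0.27, adjusted p = 0.0113). The scavenger receptor Stab1 fell by 1.09 and Pdpn by 1.23 (adjusted p = 0.0166 and 0.0186), while the defining markers Prox1 and Lyve1 differed by 0.23 and 0.02. The 3 calls became 1 without DEX array 1, DEX array 2, or PBS array 3.

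Smooth muscle markers were higher without calls. All 10, all past the filter, had a positive change with a median of 0.51, and 7 lay above all PBS arrays (11.6% of all genes did), but 0 were called. Myh11, the smooth muscle myosin heavy chain, was 13.85, 13.79, 14.05, and 13.80 with PBS and 14.74, 14.58, and 15.02 with DEX, a change of 0.91 with an adjusted p of 0.0229 but under 2-fold. Acta2 and Cnn1 differed by 0.54 and 0.40. For each of these 3 genes DEX array 4 was the highest of the 7 arrays, and the list mean was 12.72 to 13.10 with PBS and 13.23 to 13.78 with DEX. How far the share of muscle in the tissue piece moved with the other results was not tested. Of 14 fibroblast markers, all past the filter, 1 was called lower (all genes: 1.32%), which was Pdpn, shared with the lymphatic list. The median was −0.43, with Dcn, a defining proteoglycan, at 0.00. Of 12 enteric neuron markers, 9 past the filter, 1 was called higher (all genes: 0.859%). This was Penk, the enkephalin precursor (1.17, adjusted p = 0.00991), whose call was lost without DEX array 1, and Uchl1 was higher on all DEX arrays by 0.64. Glia, pericyte, mesothelial, and adipocyte lists had 0 calls.

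Epithelial markers gave no calls. The lists for absorptive colonocytes, pan-epithelial genes, stem and progenitor cells, goblet cells, enteroendocrine cells, and tuft cells had 0 calls each, and medians of −0.01, −0.06, 0.08, 0.05, 0.40, and −0.18. The list means still lay apart for absorptive colonocytes (15.13 to 15.35 with PBS, 14.94 to 15.12 with DEX) and tuft cells (7.22 to 7.39 and 6.90 to 7.17), both lower with DEX, and for the 3 Paneth cell genes (9.13 to 10.44 and 10.46 to 10.56), which were higher. Lgr5, the stem cell receptor, was 8.64, 8.17, 7.65, and 7.92 with PBS and 8.23, 8.05, and 8.26 with DEX. The goblet cell mucin Muc2 was 16.37 to 17.35 and 17.33 to 17.75. Of 33 proliferation genes, all past the filter, 0 were called, with a median of 0.18, and Mki67 and Top2a differed by 0.36 and 0.40 with overlapping arrays. Of 31 tight junction and barrier genes, 30 past the filter, 2 were called lower (all genes: 1.32%). Both were of the cornified type, Evpl (envoplakin, −1.57, adjusted p = 0.00133) and Tgm1 (transglutaminase 1, −1.10, adjusted p = 0.00916). The junction genes Tjp1, Ocln, and Cldn3 differed by −0.05, 0.13, and −0.02.

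Antimicrobial genes showed the widest spread with 0 of 29 called, 25 past the filter. Reg3b, a lectin that binds bacteria and was chosen after its values were seen, was 3.08, 10.71, 5.33, and 3.36 with PBS and 12.46, 11.94, and 13.56 with DEX. The groups did not overlap, but PBS array 2 was more than 5 log2 units above the other PBS arrays, and the difference of 7.03 (SE 2.96) was not called (adjusted p = 0.222). PBS array 2 is also the PBS array with the high pancreas genes, and DEX array 4, which lacks them, had the highest Reg3b. A link between Reg3b and the pancreas genes was not tested beyond the fit with the pancreas covariate. Reg3g, which was 5.39, 8.86, 2.49, and 6.40 with PBS and 8.55, 7.90, and 11.06 with DEX, overlapped. Reg4, chosen after its values were seen, went the other way, from 13.10, 13.75, 15.08, and 13.37 to 9.96, 11.07, and 9.92, a difference of −3.50 (SE 1.09) without a call (adjusted p = 0.106). Retnlb, Ang4, and the Paneth cell lysozyme Lyz1 differed by 1.02, −0.38, and −1.12, and none was called.

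Stromal signals changed in both directions. Of 48 matrix genes, 46 past the filter, 6 were called higher and 6 lower (all genes: 0.859% and 1.32%). The median was −0.19. Has2, which makes hyaluronan, was 5.93, 7.21, 7.11, and 6.64 with PBS and 3.63, 4.52, and 4.34 with DEX, a change of −2.56 (SE 0.37, adjusted p = 0.0057). The collagenase Mmp13 fell by 2.17 (adjusted p = 0.0288). In the other direction, Adamtsl2, a matrix protein of the fibrillin network, rose by 1.76 (SE 0.24, adjusted p = 0.00391), Adamts3, a procollagen protease, by 1.59 (adjusted p = 0.0102), and Lox, which crosslinks collagen, by 1.58 (adjusted p = 0.0345). Mmp7, named under the Paneth cell list, was higher on all DEX arrays (5.57 to 6.19 and 7.84 to 8.26), and its difference of 2.14 was not called (adjusted p = 0.0852). Without DEX array 1 the counts were 2 higher and 1 lower, without DEX array 2 they were 4 and 2, and without PBS array 3 they were 6 and 2.

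Of 46 genes of Wnt, BMP, activin, and hedgehog signaling, 39 past the filter, 4 were called higher and 7 lower (all genes: 0.859% and 1.32%). The median was −0.30. Fst, the secreted antagonist of activin, was 3.72, 4.79, 4.67, and 4.75 with PBS and 7.28, 6.90, and 6.88 with DEX, a rise of 2.54 (SE 0.39, adjusted p = 0.00754). Scube2, which helps release hedgehog ligands, rose by 1.85 (adjusted p = 0.00568). The stromal ligands Wnt2 and Wnt4 fell by 2.02 and 1.74 (adjusted p = 0.0191 and 0.0133), Bmp2 by 1.35 (adjusted p = 0.0323), and Chrdl2, an inhibitor of BMPs, by 1.40 (adjusted p = 0.0246). The 7 calls lower became 0 without DEX array 1 or 2, 2 without PBS array 3, 3 without DEX array 4, 4 without PBS array 2 or 4, and 4 with the pancreas covariate. Pappa, a protease that frees IGF from its binding protein, was 7.46, 6.99, 7.25, and 7.87 with PBS and 9.38, 8.84, and 9.40 with DEX, a rise of 1.82 (SE 0.32, adjusted p = 0.0123), and its second probe rose by 2.91. It was the only 1 of 21 IGF and EGF genes called (all genes: 0.859% higher and 1.32% lower), and was not called without DEX array 1. Angptl7, a secreted angiopoietin-like protein chosen after its values were seen, was 7.97, 7.36, 7.60, and 8.20 with PBS and 10.80, 10.64, and 11.03 with DEX, a rise of 3.04 (adjusted p = 0.0104).

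Growth arrest and stress genes gave few calls. Of 32 genes of growth arrest, DNA damage, and apoptosis, 31 past the filter, 2 were called higher and 3 lower (all genes: 0.859% and 1.32%). Beside Sesn1, Trp53inp1, a stress protein induced by p53, was 12.17 to 12.32 with PBS and 13.22 to 13.75 with DEX, a rise of 1.23 (SE 0.15, adjusted p = 0.00261). Bcl2a1b, an antiapoptotic relative of Bcl2 with near-identical copies, fell by 1.59 (adjusted p = 0.0159), Tnfsf10 as above, and Dram1, a lysosomal protein induced by p53, by 1.23 (adjusted p = 0.016). Without DEX array 1, 1 gene was called lower. Bcl2l11, the proapoptotic BIM, overlapped between the groups. Of 28 genes of the integrated stress response and heat shock, all past the filter, 2 were called higher (all genes: 0.859%). They were the small heat shock proteins Hspb7 (1.77, adjusted p = 0.00807) and Hspb8 (1.32, adjusted p = 0.000923), both called in all 22 settings. Hspa5 and Atf4 differed by 0.11 and 0.03. Of 20 clock genes, all past the filter, 1 was called lower and 1 higher (all genes: 1.32% and 0.859%). Dbp, an output of the clock, was called lower (14.57, 14.48, 15.14, and 14.01 with PBS and 12.33, 13.22, and 13.29 with DEX, a change of −1.60, adjusted p = 0.0194), and Noct, a clock-controlled phosphatase, was called higher (1.24, adjusted p = 0.0102). Per2 and Per3 overlapped between the groups, and without DEX array 1 neither Dbp nor Noct was called, and without PBS array 3 Dbp was not.

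Genes that mark position along the colon and genes of striated muscle differed too, and were chosen after their values were seen. Hoxb13, a marker of the distal colon, was 13.56, 13.10, 13.86, and 13.51 with PBS and 12.02, 12.85, and 11.72 with DEX, and Hoxd13 was 7.61, 7.26, 8.29, and 7.37 with PBS and 3.85, 6.94, and 4.32 with DEX. Neither difference (−1.31 and −2.59) was called, but no arrays overlapped, and Hoxd10 was called lower by 1.57 (adjusted p = 0.0348). Eno3 and Tnni1, genes of skeletal muscle, were called lower by 2.38 and 2.31 (adjusted p = 0.044 and 0.0345), with another probe of Tnni1 at −0.64. The Eno3 and Tnni1 calls were lost with the pancreas covariate and when any 1 array was left out, and the Hoxd10 call was kept in 9 of 22 settings. The part of these differences in the results above was not tested.

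The same injection in GR iKO mice gives a comparison for the genes called in Flox mice. In the same fit and at the same thresholds, 1753 of 41174 probes were called with DEX in GR iKO mice, against 631 in Flox mice. These counts do not test whether the responses differ in size. The Flox count ranged from 236 to 803 when 1 array was left out, and each group had a slide of its own. Of all 41174 probes, 56 (0.136%) were called for a response that differed by genotype. Of the 371 genes called in Flox mice past the filter, it was called for 9, which were 7 of the 140 higher and 2 of the 231 lower. The change in GR iKO mice had the same sign for 122 of the 140 higher genes and for 223 of the 231 lower ones. The median change of the higher genes was 1.52 in Flox and 0.79 in GR iKO mice, and that of the lower genes −1.40 and −1.08. Since the genes were chosen for their change in Flox mice, these medians are a description without a test. They do not show a weaker response in GR iKO mice. A gene called in 1 genotype only is therefore not shown to differ. Ccl2 and Cxcl10, for example, changed by −2.45 and −3.72 without epithelial GR, and the responses of the genotypes differed by 0.75 (adjusted p = 0.582) and −0.26 (adjusted p = 0.919) without a call.

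The 9 genes with a called difference were Arg2, Scnn1b, Hsd11b2, Prodh, Acy1, Fam43a, Pdzd4, Sectm1a, and Rab33a, the last chosen after its values were seen. Rab33a, a small GTPase, changed by −1.05 in Flox and 0.39 in GR iKO mice (adjusted p of the difference = 0.0312). Slc6a6 was not among the 9 by its brightest probe. Another of its probes, also past the filter, rose by 1.06 in Flox mice and changed by −0.07 in GR iKO mice, and there the difference was called (limma adjusted p = 0.0129). Arg2 changed by 0.31 in GR iKO mice against 5.32 in Flox mice (difference −5.00, SE 0.78, adjusted p = 0.0331), Scnn1b by −0.90 against 2.06 (adjusted p of the difference = 0.0327), and Hsd11b2 by −0.85 against 1.52 (adjusted p of the difference = 0.0312). Scnn1b began from a higher level without epithelial GR, at 7.30 ± 0.50 (SD, n = 3) with PBS and 6.40 ± 0.48 (n = 4) with DEX. Prodh changed by −0.28 against 1.34 (adjusted p of the difference = 0.0193), Acy1 by −0.63 against 1.06 (adjusted p of the difference = 0.0181), and Fam43a by −0.47 (difference −2.55, adjusted p = 0.00122). Pdzd4 and Sectm1a were chosen after their values were seen. Pdzd4, a PDZ domain protein, was 3.51 to 3.76 with PBS and 5.80 to 5.94 with DEX in Flox mice, whereas its change was −0.36 without epithelial GR (adjusted p of the difference = 0.0265). Its GR iKO levels were 6.06 ± 0.37 (SD, n = 3) with PBS and 5.70 ± 0.58 (n = 4) with DEX, so it was near the Flox DEX level without DEX. Sectm1a, a secreted and transmembrane protein that acts on T cells, was 7.96, 7.95, 7.53, and 8.26 with PBS and 5.64, 5.94, and 6.23 with DEX in Flox mice, a change of −1.99, against 0.24 in GR iKO mice (difference 2.23, SE 0.28, adjusted p = 0.0156). By contrast, Pdk4, Car14, Klf15, Tsc22d3, and Angptl7 changed by 3.44, 2.30, 1.91, 1.62, and 3.26 without epithelial GR, and for none of them was the difference between the responses called.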

How the data were processed

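Total RNA from whole colon (TRIzol, then Qiagen RNeasy) was labelled with Cy3 and hybridized to Agilent 1-color mouse arrays of 532 rows and 85 columns. Per the file headers, spot intensity was extracted with Agilent Feature Extraction (12.0.0.7), and the submitters' processing notes name Partek (6.6). The log2 table was deposited by the authors. Of its values, 99.8% lay within 0.05 of quantile normalized log2 scanner signal (lowest correlation of a column with its own array 0.999), so this scale was inferred from the values. It was used without further normalization. Spots flagged well above background in the scanner files gave the filter, which 28434 of 41174 probes passed, 26842 of them through both groups, 731 through DEX only, and 861 through PBS only.

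Probes were named through RefSeq accessions (28223 of 41174 named, 19096 genes). All 14 arrays entered 1 limma (3.58.1, R 4.3.3) fit with a mean per group and empirical Bayes moderation (10 residual and 1.53 prior degrees of freedom). p-values were Benjamini-Hochberg adjusted over all 41174 probes, and the step was tested on simulated data. As the labels do not say that replicates came from separate experiments, p-values measure the spread between these samples. The number of arrays limits the precision.

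Named genes were the 8 largest called rises and 8 largest called falls that all arrays of the group with the higher level detected, the first 3 members of each list as written, the called members of each list with the largest changes (at most 6), and a few genes chosen after their values were seen. The members and lists were chosen with earlier results of these data known. Lists are described by counts and medians over all members on the array, with no set test, and several lists share genes. Promoters were RefSeq's (GRCm38.p6), searched over 250 bases before each start. The alternatives were other scalings, background corrections, filters, thresholds, moderation, array weights, a replicate block, a pancreas covariate, a part of the array left out, each array left out, and the methods' t-test on the same values. A few members of the lists are not reported here by name.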

Additional observations from a re-analysis of the deposited data

Results flagged for a closer look

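Among 302 groups of 4 Flox PBS values tested, of named genes and of list means, 15 had 1 array far from the other 3 (the gap to its nearest neighbour over the whole range, above Dixon's critical value), and chance alone flags about 1 group in 20. The DEX group, with 3 arrays, was not tested. PBS array 1 stood low for Fst (0.889), Hsd11b1 (0.896), Icam1 (0.845), Icam2 (0.834), Cnn1 (0.859), the fibroblast receptor Pdgfra (0.89), and the matrix list mean (0.916), and high for the NF-kB and AP-1 list mean (0.836). For Icam1 it was 5.46 against 6.44 to 6.62 on the other PBS arrays. PBS array 2 stood high for Arg1 (0.953) and Kdr (0.914) and low for the goblet cell peptide Tff3 (0.841). PBS array 3 stood low for the B cell receptor subunit Cd79a (0.93) and for Tsc22d3 (0.919), and PBS array 4 stood high for Tnf (0.851) and low for the IGF and EGF list mean (0.853).

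The response to DEX differed between GR iKO and Flox mice in limma for 9 named genes, given here as the GR iKO change minus the Flox change. It was −1.69 for Acy1, −5 for Arg2, −2.55 for Fam43a, −2.37 for Hsd11b2, −2.55 for Pdzd4, −1.62 for Prodh, −2.95 for Scnn1b, 2.23 for Sectm1a, and 1.43 for Rab33a.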

How the results depend on the processing

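Of 122 called genes followed over the alternatives, nearly all of them named here, 7 were called under every alternative in which they were fitted (22 at most), 42 under all but the methods' t-test, and each in at least 7, and 0 changed direction. Rab33a was not among the 122. The 631 called probes (256 higher, 375 lower) became 224 (106 and 118) with normexp background correction, 31 (21 and 10) with the methods' t-test after Benjamini-Hochberg adjustment, against 1389 at its unadjusted p under 0.05 with a 2-fold change, 1439 (598 and 841) with no fold minimum, 203 (92 and 111) at an adjusted p under 0.01, and 1183 (545 and 638) with array weights. With the pancreas covariate they were 416 (163 and 253). Leaving out 1 array gave 236 to 803 called probes, 117 to 315 higher and 119 to 559 lower. The 113 called members of the gene lists became 56 to 129 and the 25 called cell type markers 8 to 39. The lowest of these values came without DEX array 1 and the highest without PBS array 1, except for higher probes, where it came without DEX array 4. The cause was not tested.

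Replicate numbers are positions on the slide, and same-numbered arrays deviated with r of −0.0597, 0.166, and 0.308, so the numbers were not taken to pair samples. With the replicate number as a block, 386 probes were called (171 higher, 215 lower), and the counts of list members called lower went from 6 to 0 for antigen presentation, 15 to 9 for interferon-gamma-induced genes, 5 to 2 for NF-kB and AP-1, 7 to 3 for Wnt and BMP, 6 to 3 for matrix, 3 to 1 for complement, 2 to 1 for NK cells, 1 to 0 for fuel selection and plasma cells, and 2 to 5 for type I interferon-induced genes. The other alternatives moved the 3 counts of called probes by less than 1.5 times. Dim probes hold only bounds.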
